A study of Homo sapiens with 2 samples.

Results

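The glutamine amidotransferases are enzymes that take the amide nitrogen of glutamine and place it on a second substrate. The 10 genes described here encode those of nucleotide, amino-sugar, asparagine and NAD synthesis, and were chosen by gene symbol: PPAT, PFAS, GMPS, CAD, CTPS1, CTPS2, GFPT1, GFPT2, ASNS and NADSYN1. They are 10 of 46427 gene rows in the deposited table, and all 10 passed the minimum used here, 50 counts in either library, as did 14805 rows in all. Messenger RNA was sequenced from 2 cultures of a human pancreatic adenocarcinoma line labelled MiaPaca2 (MIA PaCa-2), 1 treated with iMQT_020 and 1 treated with vehicle, each for 48 hours. The labels call the compound an inhibitor of the mitochondrial glutamine transporter, name no further treatment and no genotype, and do not name the vehicle. The comparison asks how transcript levels differ in the presence of the compound.

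Each condition was represented by 1 library. No difference has a replicate check, no test of the treatment was possible, and the treatment and anything else that set the 2 cultures or library preparations apart cannot be told apart. Nor can less RNA per cell and fewer expressing cells. Totals were 59139157 estimated counts (iMQT_020) and 67095283 estimated counts (vehicle). The epithelial keratins KRT8 and KRT18 were present, at 77.5 to 128 TPM over both libraries, while EPCAM, KRT19 and CDH1 lay at or below 0.0842 TPM. CDKN2A, a gene that MIA PaCa-2 is known to lack, was at 208 TPM in the iMQT_020 library and 278 TPM in the vehicle library, so the identity of the cells is uncertain. Of 13 markers of fibroblasts, immune and endothelial cells, COL1A1 (11.1 and 16.5 TPM in the iMQT_020 and vehicle libraries) and CD68 (1.44 and 0.985 TPM, in the same order) were the only ones to reach 1 TPM in a library.

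In amidotransferases, 1 domain releases ammonia from glutamine and another uses it, so that the ammonia is consumed within the enzyme. PPAT, PFAS and GMPS act at separate steps of purine synthesis, CAD opens pyrimidine synthesis and the CTP synthases close it, GFPT1 and GFPT2 open the hexosamine pathway that feeds protein glycosylation, ASNS makes asparagine from aspartate, and NADSYN1 amidates the last precursor of NAD. These enzymes draw on glutamine in the cytosol, and proliferating cells are known to depend on them for nucleotides. ASNS is a classic target of ATF4, the transcription factor of the amino acid response, and several genes of nucleotide synthesis, CAD among them, are known targets of MYC.

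The proximal promoters of ASNS, PPAT, PFAS and GFPT1 are shown. In the windows searched, ASNS held the only match among the 10 genes to an ATF4 element. PPAT held the only match to an E-box, the motif that MYC binds. PFAS and GFPT1 had the lowest and the highest ratio of the 10 genes. Each promoter is the run of 250 bases before an annotated start, 5′ to 3′ on the strand of the gene, from RefSeq on GRCh38.p14. Bases after a start were not searched. They lie at chr7:97872409-97872658 (ASNS, minus strand), chr4:56435616-56435865 (PPAT, minus strand), chr17:8249039-8249288 (PFAS, plus strand) and chr2:69387228-69387477 (GFPT1, minus strand). Capitals mark matches, on either strand, to any of the motifs searched.
ASNS: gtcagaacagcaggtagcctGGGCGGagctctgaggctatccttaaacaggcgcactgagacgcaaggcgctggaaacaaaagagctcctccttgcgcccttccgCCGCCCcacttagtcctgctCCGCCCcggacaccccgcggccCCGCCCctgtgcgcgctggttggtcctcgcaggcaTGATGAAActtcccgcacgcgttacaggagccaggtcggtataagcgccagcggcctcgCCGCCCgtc
PPAT: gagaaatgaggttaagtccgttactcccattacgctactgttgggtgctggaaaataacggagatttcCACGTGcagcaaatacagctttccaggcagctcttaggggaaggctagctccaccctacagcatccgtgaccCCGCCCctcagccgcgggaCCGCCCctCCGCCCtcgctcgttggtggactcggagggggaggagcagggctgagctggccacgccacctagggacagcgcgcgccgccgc
PFAS: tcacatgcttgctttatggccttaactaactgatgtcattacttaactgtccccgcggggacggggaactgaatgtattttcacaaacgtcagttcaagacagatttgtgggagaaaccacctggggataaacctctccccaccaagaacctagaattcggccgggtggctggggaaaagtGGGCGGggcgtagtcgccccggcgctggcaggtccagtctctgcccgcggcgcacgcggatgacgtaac
GFPT1: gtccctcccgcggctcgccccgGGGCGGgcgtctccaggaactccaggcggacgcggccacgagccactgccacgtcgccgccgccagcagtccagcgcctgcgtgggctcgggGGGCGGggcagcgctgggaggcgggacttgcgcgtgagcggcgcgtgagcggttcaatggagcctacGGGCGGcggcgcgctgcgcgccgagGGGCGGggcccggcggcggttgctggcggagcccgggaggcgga

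The motifs searched were CACGTG (an E-box), CCAAT (CAAT box), GGGCGG (GC box), TGATGNAA (the composite element bound by ATF4) and the motif of NRF1, in 13 windows that covered all 10 genes. No matches of different motifs overlapped. The element TGATGAAA began 68 bases before the ASNS start whose window is shown (position −68). A second ASNS window, at chr7:97872166-97872415, held no ATF4 motif. This motif was in 3.14% of 35116 promoter windows of the same length. The E-box began 182 bases before the PPAT start (position −182), and this motif was in 6.34% of the windows. A GC box was found in all 10 genes, against 42.6% of windows, a CAAT box in CAD and GFPT2, against 32.0%, and the NRF1 motif in CTPS1 and NADSYN1, against 5.07%. A gene was counted if any of its windows matched, while the percentages are per window, so the measures are unlike. The CTPS1 window at chr1:40988269-40988518 and the CTPS2 window at chrX:16712670-16712919 held no GC box. These are matches of letters and say nothing of binding in these cells. The transcripts of both factors had negative ratios: ATF4 had 21654 counts in the iMQT_020 library and 36973 in the vehicle library, a log2 ratio of −0.60 (−0.33 on deposited TPM and −0.38 centred on GC content and length), and MYC had 7796 counts with iMQT_020 and 19348 with vehicle, a log2 ratio of −1.14.

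Across the 10 genes the differences were small and went both ways. A log2 ratio here is that of CPM values scaled by the TMM method, iMQT_020 over vehicle, and its interval is an exact 95% interval that covers counting error only. None of the 10 was at least 2-fold higher or lower, where 2.15% of all measured genes passed the rule on the higher side and 3.09% on the lower. All 10 belong to the 9312 genes that reached 1000 counts in either library, for which these shares were 0.322% and 0.956%. By a 1.5-fold rule 1 gene, PFAS, was lower and none was higher, where 10.2% of measured genes were lower and 6.3% higher. The median log2 ratio of the 10 genes was −0.16 (order-statistic 95% interval −0.49 to 0.17), beside −0.025 for all measured genes. The log2 ratio was below 0 for 7 of the 10, against 52.7% of measured genes. The counting interval lay below 0 for those 7, above 0 for GFPT1 and ASNS, and across 0 for CTPS2. Of all measured genes, 39.1% had an interval below 0 and 35% one above. These shares include genes with few counts, whose intervals are wider, so they are not matched to the 10 genes in depth. All 10 ratios lay within the central 95% of those 9312 genes, which ran from −0.76 to 0.59.

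**Figure D1:**
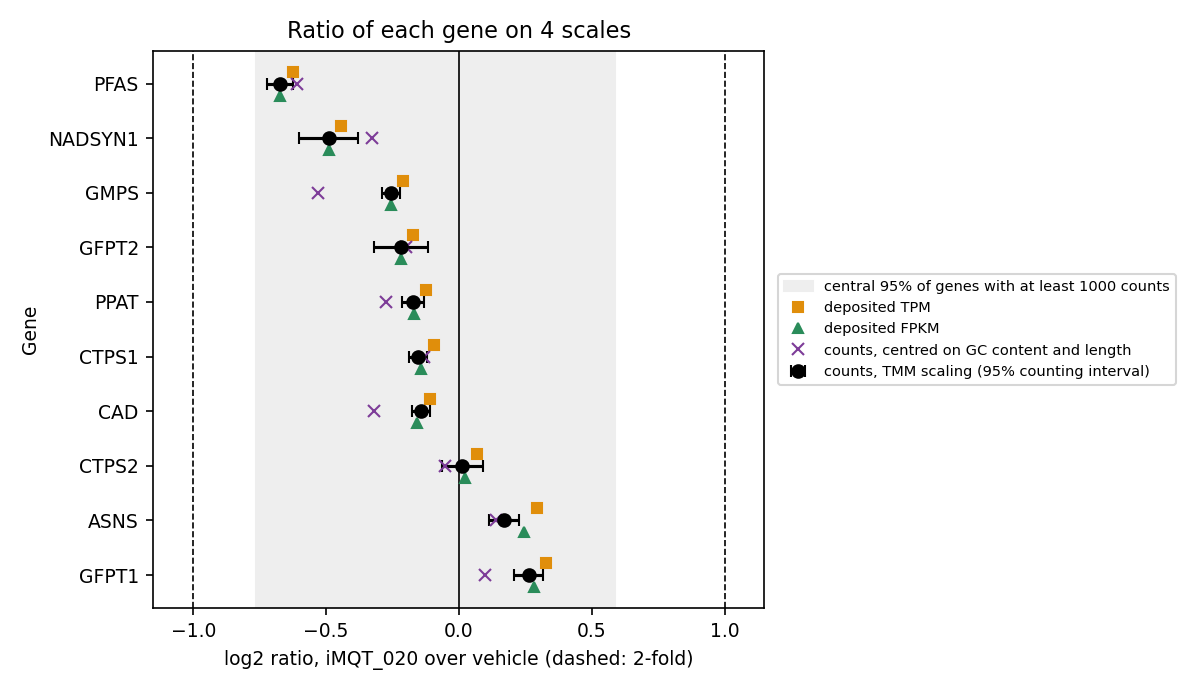
Log2 ratio, iMQT_020 over vehicle, of each of the 10 genes from counts (black, with the 95% counting interval), deposited TPM, deposited FPKM and counts centred on GC content and transcript length; the grey band is the central 95% of the genes that reached 1000 counts and the dashed lines mark 2-fold. All points lie inside the band, PFAS is lowest at −0.67 and GFPT1 highest at 0.26 on counts, and CTPS2 changes side of 0 with the scale.

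In order of the ratio, PFAS was lowest, then NADSYN1, GMPS, GFPT2, PPAT, CTPS1, CAD, CTPS2, ASNS and GFPT1. PFAS, NADSYN1 and GMPS were separated from each other beyond counting error, as were CAD from CTPS2 and CTPS2 from ASNS. The intervals of neighbours from GMPS through CAD overlapped, as did those of ASNS and GFPT1.

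The levels, which compare genes per length of transcript, are given in TPM with an interval scaled from the Poisson error of the count. CTPS1 was the most abundant in each library, at 165 TPM (162 to 168) with iMQT_020 and 176 TPM (173 to 179) with vehicle. The lowest was NADSYN1 with iMQT_020, at 16.0 TPM, and GFPT2 with vehicle, at 20.4 TPM. The highest level was 10.3 times the lowest in the iMQT_020 library and 8.62 times in the vehicle library. In the iMQT_020 library the order was CTPS1, PPAT, ASNS, CAD, GMPS, PFAS, GFPT1, CTPS2, GFPT2 and NADSYN1, and PPAT could not be separated from ASNS, nor GFPT1 from CTPS2, by counting error. In the vehicle library the order was CTPS1, PPAT, CAD, ASNS, GMPS, PFAS, CTPS2, NADSYN1, GFPT1 and GFPT2, and the last 3 overlapped as neighbours. The 10 genes summed to 589 TPM with iMQT_020 and 630 TPM with vehicle.

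**Figure D2:**
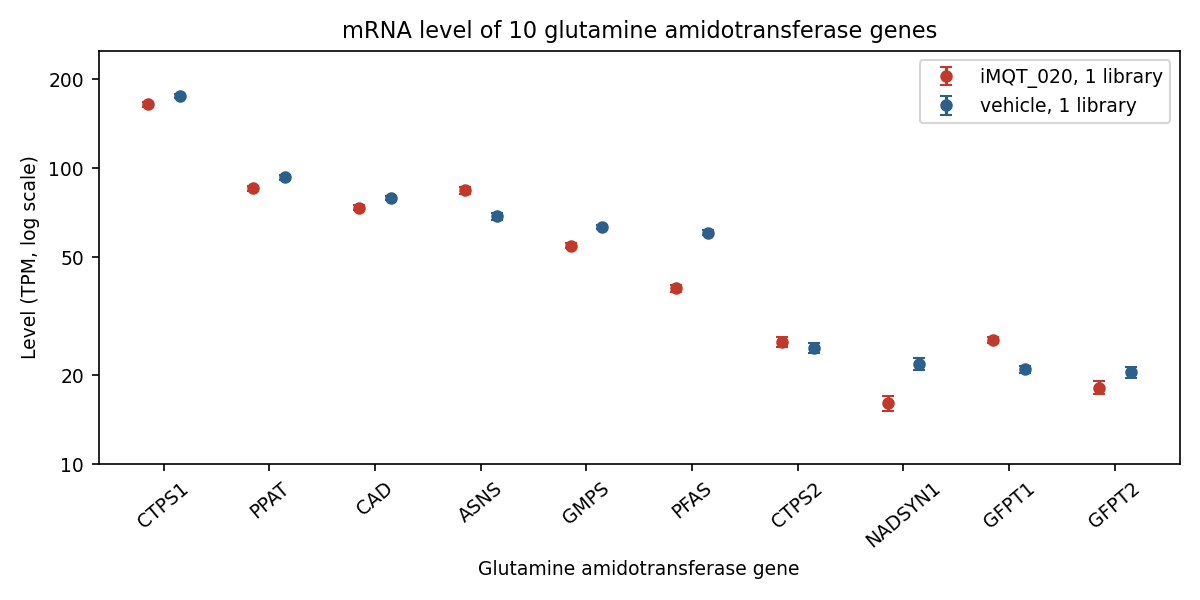
Level of each gene in TPM on a log axis, in the iMQT_020 library (red, left of each pair) and the vehicle library (blue), 1 library each, with 95% intervals of counting error; genes are ordered by the vehicle level. PFAS shows the widest gap, 39.3 TPM with iMQT_020 and 60.7 TPM with vehicle, while ASNS, CTPS2 and GFPT1 are higher with iMQT_020.

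All 3 purine enzymes had lower CPM in the iMQT_020 library. PPAT (Gene ID 5471; chromosome 4, 56393362 to 56435615, GRCh38) catalyses the committed step, the transfer of nitrogen to phosphoribosyl pyrophosphate. It had 8034 counts and 85.6 TPM with iMQT_020, against 10230 counts and 93.3 TPM with vehicle, a log2 ratio of −0.17 (−0.21 to −0.13). PFAS (Gene ID 5198; chromosome 17, 8247608 to 8270486) converts formylglycinamide ribonucleotide to its amidine. It had 5360 counts and 39.3 TPM with iMQT_020, against 9652 counts and 60.7 TPM with vehicle. This gave a log2 ratio of −0.67 (−0.72 to −0.62), or 1.59-fold lower. Further down lay 8.19% of measured genes, and 3.79% of those with at least 1000 counts. GMPS (Gene ID 8833; chromosome 3, 155869430 to 155944020) aminates xanthosine monophosphate to guanosine monophosphate. It had 12067 counts and 54.8 TPM with iMQT_020, against 16271 counts and 63.3 TPM with vehicle, a log2 ratio of −0.25 (−0.29 to −0.22). With its ratio centred on the GC content and length of transcripts, GMPS was at −0.53, PPAT at −0.27 and PFAS at −0.61. The 3 genes summed to 180 TPM with iMQT_020 and 217 TPM with vehicle.

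PFAS was set against the other purine amidotransferases after its ratio was seen. The level of PFAS was 0.459 times that of PPAT with iMQT_020 and 0.650 times with vehicle, in TPM. The log2 ratio of PFAS minus that of PPAT was −0.50 (95% counting interval −0.56 to −0.44), and PFAS minus GMPS was −0.42 (−0.48 to −0.36). With the centring on GC content and length these differences were −0.34 and −0.079, so the gap to GMPS was largely lost.

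CAD and CTPS1, of pyrimidine synthesis, had ratios slightly below 0, and CTPS2 had a ratio at 0. CAD (Gene ID 790; chromosome 2, 27217369 to 27243943) is a fused enzyme whose carbamoyl-phosphate synthetase part uses glutamine in the opening step of the pathway. It had 12769 counts and 73.7 TPM with iMQT_020, against 15941 counts and 79.5 TPM with vehicle, a log2 ratio of −0.14 (−0.18 to −0.11), or −0.32 with the centring on GC content and length. CTPS1 (Gene ID 1503; chromosome 1, 40979696 to 41012565) aminates UTP to CTP. It had 12192 counts with iMQT_020, against 15317 with vehicle, a log2 ratio of −0.15 (−0.19 to −0.12), or −0.095 on deposited TPM. CTPS2 (Gene ID 56474; chromosome X, 16587999 to 16712910), its isoenzyme, had 2582 counts and 25.9 TPM with iMQT_020, against 2893 counts and 24.7 TPM with vehicle. Its log2 ratio was 0.012 (−0.065 to 0.089), so no difference was detectable at this depth, and it was at −0.051 with the centring.

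CTPS1 carried most of the CTP synthase transcript in both libraries. Its share of the counts of the pair was 82.5% with iMQT_020 (95% Wilson interval 81.9% to 83.1%) and 84.1% with vehicle (83.6% to 84.6%). In TPM, CTPS1 was 6.37 times CTPS2 with iMQT_020 and 7.13 times with vehicle. The difference of their log2 ratios, CTPS1 minus CTPS2, was −0.17 (−0.25 to −0.081), and −0.081 with the centring.

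The isoenzymes that open the hexosamine pathway differed in opposite directions. Both join glutamine nitrogen to fructose 6-phosphate. GFPT1 (Gene ID 2673; chromosome 2, 69319780 to 69387227), the widely expressed form, had 5673 counts and 26.3 TPM with iMQT_020, against 5341 counts and 20.9 TPM with vehicle. The log2 ratio was thus 0.26 (0.21 to 0.32), or 1.20-fold higher, and it was 0.10 with the centring on GC content and length. GFPT2 (Gene ID 9945; chromosome 5, 180300698 to 180353336) had 1405 counts and 18.1 TPM with iMQT_020, against 1846 counts and 20.4 TPM with vehicle, a log2 ratio of −0.22 (−0.32 to −0.12). The difference of the log2 ratios, GFPT1 minus GFPT2, was 0.48 (0.37 to 0.59) on counts, 0.50 on TPM and 0.30 with the centring. GFPT1 took 80.1% of the counts of the pair with iMQT_020 (79.2% to 81.1%) and 74.3% with vehicle (73.3% to 75.3%). Per length, the pair was nearly even with vehicle, where GFPT1 was 1.03 times GFPT2, and GFPT1 was 1.45 times GFPT2 with iMQT_020. Their sum was 44.4 TPM with iMQT_020 and 41.3 TPM with vehicle.

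ASNS had a ratio above 0 by itself and a ratio at 0 once the read-through gene model at its locus was added. ASNS (Gene ID 440; chromosome 7, 97851677 to 97928441) had 5193 counts and 84.5 TPM with iMQT_020, against 5220 counts and 69.0 TPM with vehicle. Its log2 ratio was 0.17 (0.11 to 0.22) on counts and 0.29 on deposited TPM. CZ1P-ASNS (Gene ID 107986827; chromosome 7, 97852117 to 97972358), a read-through transcript listed as a long non-coding RNA, spans most of the same interval. It had 121 counts and 1.34 TPM with iMQT_020, against 793 counts and 7.53 TPM with vehicle, a log2 ratio of −2.53 (−2.82 to −2.26). It took 2.28% of the counts of the pair with iMQT_020 (1.91% to 2.71%) and 13.2% with vehicle (12.4% to 14.1%). The 2 rows together had 5314 counts with iMQT_020 and 6013 with vehicle, and a log2 ratio of −0.0020 (−0.056 to 0.051), while their summed TPM, 85.8 with iMQT_020 and 76.5 with vehicle, gave 0.17. How reads were divided between the 2 gene models is not given in the sources used here, and its part in the ratio of ASNS was not tested.

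**Figure D3:**
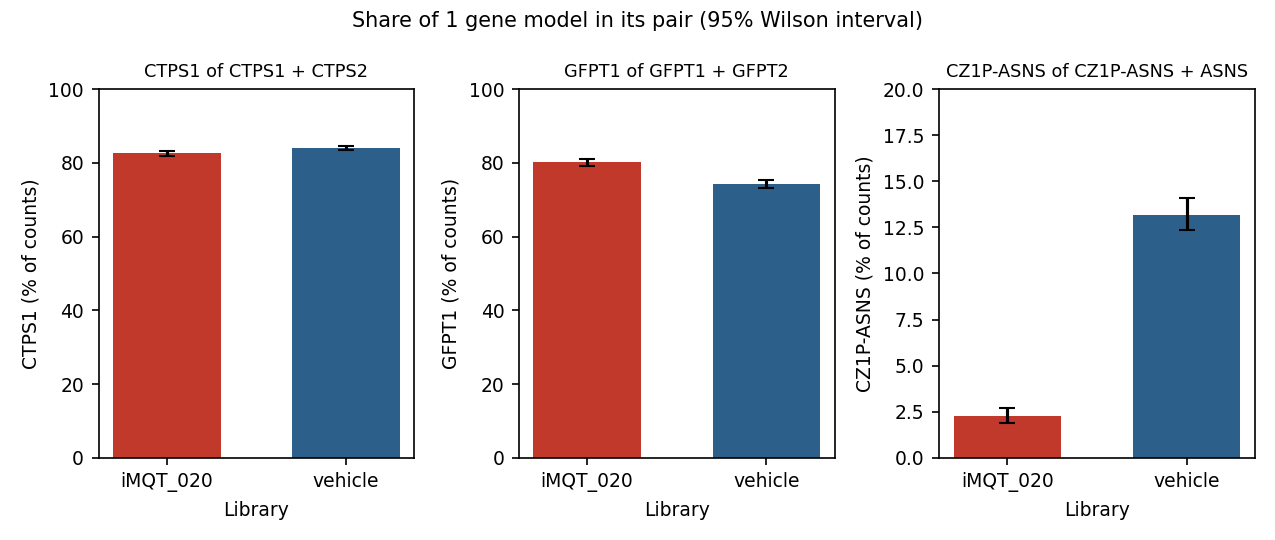
Share of counts, in percent, that 1 gene model takes of its pair in the iMQT_020 library (red) and the vehicle library (blue), with 95% Wilson intervals; the axis of the panel for CZ1P-ASNS ends at 20%. With iMQT_020 the CTPS1 share is slightly lower (82.5%, against 84.1% with vehicle), the GFPT1 share is higher (80.1%, against 74.3%), and the CZ1P-ASNS share is lower (2.28%, against 13.2%).

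The exons of ASNS were the main case of overlap among the 10 genes. In GENCODE 44, another annotated gene on the same strand covered 49.3% of the exon bases of ASNS, and a gene on the opposite strand covered 2.22% of those of PPAT. The exons of the other 8 genes overlapped none. Of 6 pseudogene rows named for 1 of the 10 genes, 4 were at 0 in both libraries and the highest count was 20.

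NADSYN1 (Gene ID 55191; chromosome 11, 71453203 to 71501816), the glutamine-dependent NAD synthetase, had the second lowest ratio. It had 1097 counts and 16.0 TPM with iMQT_020, against 1742 counts and 21.8 TPM with vehicle. This gave a log2 ratio of −0.49 (−0.60 to −0.38), or 1.41-fold lower. Further down lay 13.4% of measured genes, and 7.96% of those with at least 1000 counts. With the centring on GC content and length the log2 ratio was −0.33.

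**Figure D4:**
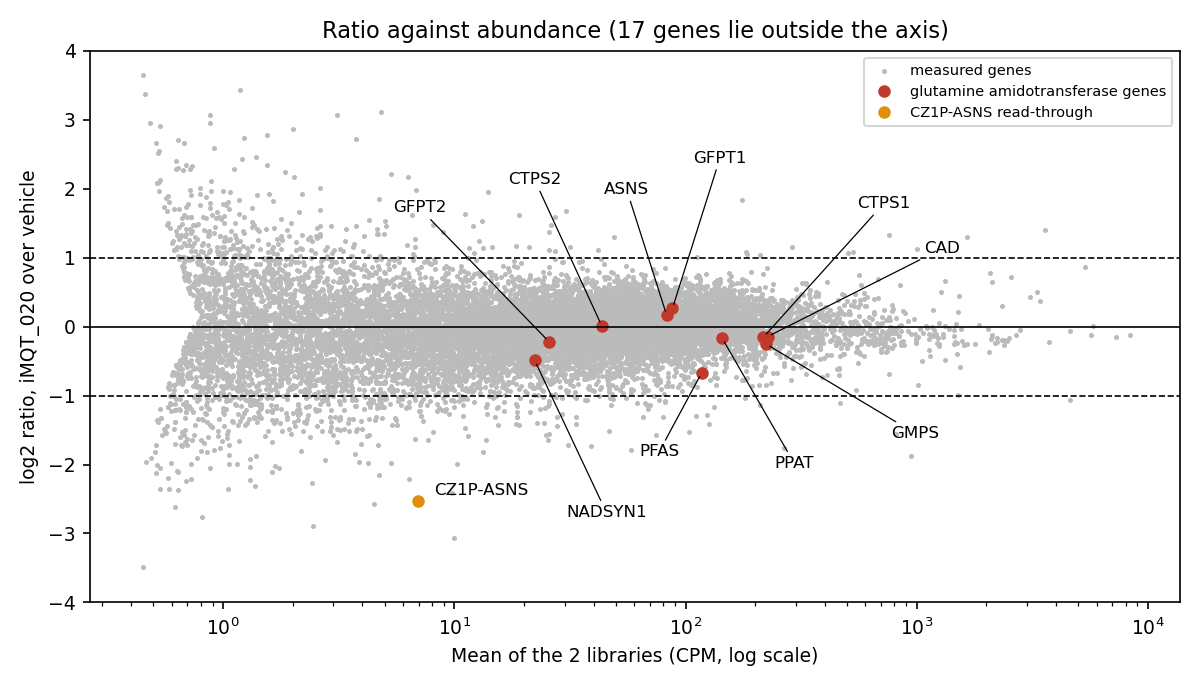
Log2 ratio, iMQT_020 over vehicle, against the mean of the 2 libraries in CPM on a log axis, for all measured genes (grey), the 10 amidotransferase genes (red) and CZ1P-ASNS (orange); 17 genes lie outside the axis. The 10 genes sit inside the dashed 2-fold lines, and CZ1P-ASNS lies below them at −2.53.

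The 10 enzymes release ammonia through unrelated folds, and the ratios are also given by this feature, which their choice did not use. The 5 enzymes with a triad glutaminase domain (PFAS, GMPS, CAD, CTPS1 and CTPS2) had log2 ratios from −0.67 to 0.012, 4 of them below 0. The 4 enzymes with an N-terminal nucleophile domain (PPAT, GFPT1, GFPT2 and ASNS) ran from −0.22 to 0.26, with 2 below 0. Beside these counts, 52.7% of all measured genes had a log2 ratio below 0. NADSYN1 has a glutaminase domain of the nitrilase type. The ranges of the 4 and the 5 overlapped. Summed levels were 358 TPM with iMQT_020 and 404 TPM with vehicle for the triad enzymes, and 214 TPM with iMQT_020 and 204 TPM with vehicle for the N-terminal nucleophile enzymes.

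The other genes of each pathway were read from lists of enzymes, and 0 of the genes measured in these lists were at least 2-fold higher or lower. By the same rule 2.15% of all measured genes were higher and 3.09% lower. Among genes with at least 1000 counts these shares were 0.322% and 0.956%. Of 14805 measured genes, 7805 (52.7%) had a log2 ratio below 0 and 7000 had one above. Where the direction of a named gene turned, or its size moved by over 1.5 times, on deposited TPM or FPKM or with the centring on GC content and length, the value furthest from that on counts is given beside it. Intervals of medians describe the spread over the genes of a list, taken as independent, and are no test of the treatment. All 13 genes of purine synthesis were measured, with 12 below 0 and a median log2 ratio of −0.23 (−0.50 to −0.14). Among the 10 that are not amidotransferases, the lowest was PRPS2 at −0.54, which with PRPS1 (−0.50) makes the phosphoribosyl pyrophosphate that PPAT consumes, and the highest was ADSS1, a muscle-type adenylosuccinate synthase with few counts, at 0.033, or 0.23 centred (163 counts with iMQT_020 and 180 with vehicle). PFAS thus had the lowest ratio of the list. PAICS, which carries out later steps and has a start beside PPAT on the opposite strand, had 38759 counts with iMQT_020, against 55724 with vehicle. Its log2 ratio was −0.35 on counts and −0.18 on deposited TPM. Of the other steps, GART was at −0.16 (−0.097 on TPM), ADSL at −0.33 (−0.53 on FPKM) and ATIC at −0.078 (−0.027 on TPM). IMPDH2, which supplies the substrate of GMPS, was at −0.14 and turned to 0.078 centred.

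Among 8 pyrimidine synthesis genes the median was −0.17 (−0.52 to 0.012, the full range), and 7 lay below 0, against 52.7% of measured genes. Besides CAD and the CTP synthases, the lowest was NME1 at −0.52 (−0.34 centred) and the highest CMPK1 at −0.023 (−0.097 centred, but 0.023 on TPM), both nucleotide kinases. NME1 and NME2 (−0.43, or −0.21 centred) are near-identical in sequence, so the split of reads between them is uncertain. DHODH, the mitochondrial step of the pathway, had 761 counts with iMQT_020, against 1175 with vehicle (log2 ratio −0.45), and UMPS, the next step, was at −0.18 (−0.27 centred).

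The hexosamine genes were divided, with 8 of 13 above 0, beside 7000 of 14805 measured genes. Their median was 0.045 (−0.22 to 0.29). PGM3, the mutase that acts on N-acetylglucosamine 6-phosphate, was highest at 0.37 (0.31 to 0.43), or 0.15 centred, with 5041 counts with iMQT_020 and 4411 with vehicle. AMDHD2, a deacetylase that acts in the reverse direction, was lowest at −0.76 (−0.87 to −0.65), or −0.45 centred, with 1113 counts with iMQT_020 and 2129 with vehicle. GNPNAT1 and UAP1, the remaining steps to UDP-N-acetylglucosamine, were at 0.045 and 0.017, and turned to −0.027 and −0.054 centred. OGA, which removes O-linked N-acetylglucosamine from proteins, was at 0.29 (0.17 centred). OGT, which adds it, was at −0.12 on counts but at 0.011 on TPM.

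For asparagine metabolism 6 of 7 genes were measured, with 3 above 0 and a median of −0.010. The cytosolic aspartate transaminase GOT1 was at 0.37 and the mitochondrial one, GOT2, at −0.26 (−0.17 centred). For NAD synthesis 10 of 11 genes were measured, with 6 below 0, against 52.7% of measured genes, and a median of −0.044. QPRT, the entry from quinolinate, was lowest at −0.96 (−1.03 to −0.88), with 2152 counts with iMQT_020 and 4724 with vehicle, and NMNAT1, the nuclear adenylyltransferase, was highest at 0.80 (0.65 to 0.96), with 827 counts with iMQT_020 and 535 with vehicle. NAPRT, which makes the mononucleotide that leads to the substrate of NADSYN1, had 217 counts with iMQT_020 and 310 with vehicle, and its log2 ratio of −0.34 was −0.026 on TPM and 0.081 centred. NAMPT, which makes NAD from nicotinamide without glutamine, was at 0.069, and turned to −0.11 centred.

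The genes that supply glutamine had a median of −0.057 over the 5 of 7 measured, or −0.20 centred and 0.0015 on TPM. GLUL, which makes glutamine, was at −0.049 (−0.19 centred, but 0.018 on TPM), and the transporter SLC38A2 was lowest at −0.47. Nucleotide salvage, the route that needs no glutamine, had 9 of 10 genes below 0, against 52.7% of measured genes. Its median was −0.35 (−0.65 to −0.019), or −0.18 centred. TK1, thymidine kinase, was lowest at −0.89 (−0.57 centred) and DCK, deoxycytidine kinase, highest at 0.12 (0.042 centred).

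**Figure D5:**
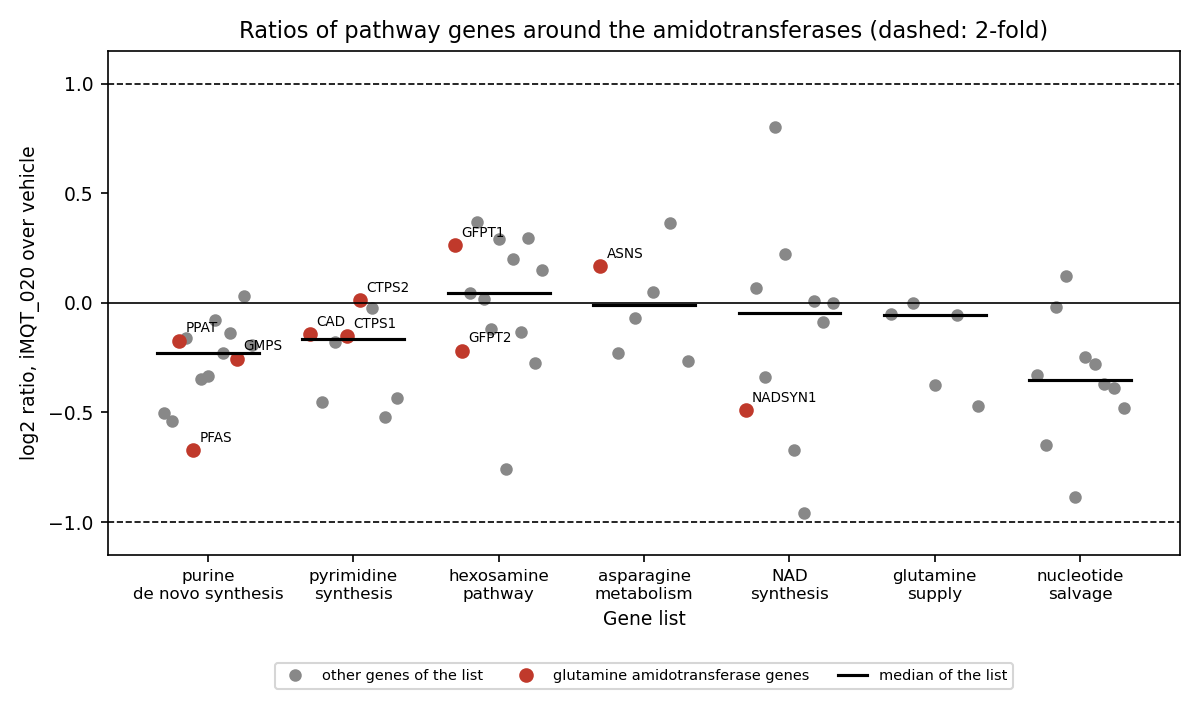
Log2 ratio, iMQT_020 over vehicle, of each measured gene in 7 lists, with the amidotransferases in red, other genes in grey, the median of each list as a bar and dashed lines at 2-fold. PFAS, GMPS, GFPT2 and NADSYN1 lie below the median of their lists. PPAT, CAD, CTPS1, CTPS2, ASNS and GFPT1 lie above, and no gene reaches 2-fold.

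The ratio of all genes varied with the sequence of transcripts, which bears on the centred values above. Over 13734 measured genes with a canonical transcript, the median log2 ratio was 0.13 in the bottom bin of GC content and −0.31 in the top bin, and −0.20 in the bin of shortest transcripts and 0.18 in that of the longest, with 10 bins of each. PFAS, CAD and NADSYN1 have the highest GC content of the 10 (57.7% to 58.2%), and GFPT1 and GMPS are the longest (8665 and 8631 bases). The part of this in the ratio of any 1 gene was not tested.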

How the data were processed

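Processed data from 2 libraries were used, 1 per treatment, so no p-value or replicate error was computed. Per the labels' protocols, RNA was isolated with TRIzol, and HISAT2 with Bowtie2 was the mapper, against GRCh38. The submitters' processing notes name StringTie and edgeR, without their versions or roles. The read counting step and its strand setting are not stated. The authors deposited estimated counts as whole numbers. FPKM and TPM were computed by the authors and deposited beside them, and a second deposited table repeated the FPKM of 20787 genes. No columns of sample values were left unassigned (0).

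Counts were scaled by TMM in edgeR 4.0.16 (R 4.3.3), with factors of 1.00 (iMQT_020) and 0.998 (vehicle). Ratios used a prior count of 0.5, a minimum of 50 counts in either library and a 2-fold rule. Intervals (Clopper-Pearson for ratios, Wilson for shares, Poisson for levels, normal for differences of log2 ratios, all at 95%) cover counting error only and treat estimated counts as reads. Medians carry binomial order-statistic intervals, or the range where there are 5 genes. For lists of 6 or 8 genes these intervals also equal the range. These treat the genes of a list as independent draws and are no test of the treatment. Centring used joint bins, 10 each, of GC content and length from GENCODE 44, for 92.8% of measured genes. Promoters and positions came from RefSeq (GRCh38.p14), which matched 44698 rows by gene ID. Alternatives were other scalings (DESeq2 1.42.0 for median of ratios), other minimum counts (10, 200, none), a prior count of 5, deposited TPM and FPKM plus 1, TPM with no added value, the summed ASNS locus, the centring and a 1.5-fold rule. The genes, lists and motifs were chosen with earlier results of these data known. All 10 genes are named, with the highest and lowest other gene of each list, PAICS, MYC, ATF4 and any read-through model of a named gene; further genes were taken from the lists, and 1 gene that the rule names is not reported here. Calculations used Python 3.11.15, numpy 2.4.6, pandas 2.3.3 and scipy 1.17.1 and were tested on simulated data.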

Additional observations from a re-analysis of the deposited data

How the results depend on the processing

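None of the 10 genes reached 2-fold under any of the 13 alternatives, and 1 was lower by the 1.5-fold rule. Not all 13 could move them: the other minimum counts (10, 200, none) cannot change the ratio of any of the 10 genes. The summed locus can change that of ASNS alone. Their median log2 ratio ran from −0.24 to −0.12 over the alternatives, against −0.16. The signs of 8 genes were kept in all 13. ASNS was below 0, at −0.0020, with CZ1P-ASNS added, and CTPS2 at −0.051 when centred on GC content and length; that centring also moved GMPS to −0.53, CAD to −0.32, PPAT to −0.27, NADSYN1 to −0.33 and GFPT1 to 0.10. ASNS was at 0.29 on deposited TPM. The causes of these shifts were not tested. The summed locus adds the counts of CZ1P-ASNS, 121 with iMQT_020 and 793 with vehicle, which lowers the ratio by arithmetic. The median of the glutamine supply genes was 0.0015 on deposited TPM, with or without an added 1, and −0.20 centred, against −0.057. The nucleotide salvage median was −0.18 centred, against −0.35. On deposited TPM the medians for asparagine metabolism (0.059) and NAD synthesis (0.029) turned above 0. They also did on FPKM plus 1, at 0.011 for asparagine metabolism and 0.036 for NAD synthesis. The asparagine metabolism median was 0.018 when scaled by total counts without mitochondrially encoded genes. Over all genes, the 2-fold rule gave 318 higher and 457 lower, but 1236 and 1008 with a minimum of 10 counts, 3503 and 2756 with none, 89 and 244 with a minimum of 200, 140 and 223 on TPM plus 1, and 48 and 118 on FPKM plus 1. Centring gave 236 and 296. No paired analysis was possible because each treatment had 1 library, and for the same reason no library could be left out. Counting error is widest for NADSYN1, with 1097 counts with iMQT_020 and 1742 with vehicle, and the interval of CTPS2 spans 0.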
